A study of Xenopus laevis with 30 samples.

Results

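Left and right half-embryos of Xenopus laevis, the African clawed frog, were compared with ventral half-embryos at stage 10.5, the early gastrula. The comparison uses 9 of the 30 libraries of the series: 3 of left half-embryos, 3 of right half-embryos and 3 of ventral half-embryos, chosen by the tissue and stage in their labels. All half-embryos were cut at stage 8, the blastula, in Barth's solution and grown in a weaker dilution of it, and all embryos were of the Nasco strain. The labels name no mutation and no agent for any group. The other stage 10.5 libraries, 3 of dorsal half-embryos cut in the same way and 3 of undivided embryos, entered the same model and are used to place the left and right values. Undivided embryos differed from every half-embryo in being uncut, and the labels' general growth protocol names a different medium. The labels do not give the number of embryos per library, nor do they say that replicates are separate clutches. The spread behind each p-value is therefore that between libraries and may be technical in part.

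The Spemann organizer is the group of cells at the dorsal lip of the blastopore that directs the body axis of the amphibian embryo. Its cells secrete Chordin and Noggin, which bind bone morphogenetic proteins (BMPs) outside the cell. They also secrete Dickkopf1, Cerberus and Frzb, which block Wnt, Nodal or BMP signalling. The opposite, ventral side is a second signalling centre where BMP signalling is high, and its products include Sizzled, Bambi and the Ventx and Msx homeobox proteins. A cut along the midline leaves part of the organizer on the left and part on the right, whereas a ventral half-embryo is cut away from it. The series concerns how bisected embryos form twins, and setting left and right half-embryos against ventral half-embryos asks how cut pieces with organizer tissue differ from a cut piece without it.

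Each of the 6 left and right libraries held 3859245 to 5543715 reads in the listed genes, and each of the 3 ventral libraries 3814623 to 4234775, as recovered from the steps of the deposited values. Expression is given as reads scaled by gene length and library depth (RPKM), and an RPKM of 1 corresponded to a median of 10.92 reads. Of 16673 listed genes, 16672 reached an RPKM of 1 in at least 3 of the 15 libraries and were tested. Differences are on the log2(RPKM + 1) scale, which understates changes of genes with low values, and are left and right minus ventral unless another pair is named. A gene was called changed at a limma Benjamini-Hochberg adjusted p of 0.05 or less, with the replicate number as a block. Genes are named as the table names them. The frog's paired chromosome sets end in .L and .S, and a model without a frog symbol carries the human symbol the authors gave it, with the model ID in brackets. Reads that match both copies of a gene may be split between them, so differences between copies are uncertain. Bulk RNA cannot tell fewer cells of a type from less RNA per cell.

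At stage 10.5, genes of the organizer were higher in left and right half-embryos than in ventral half-embryos, by up to 5.71 on the log2 scale, and genes of the ventral centre were lower. In all, 183 genes were called, 1.10% of those tested. Of these, 109 were higher in left and right half-embryos (0.654% of genes tested) and 74 were lower (0.444%). In a fit of only the left, right and ventral libraries the split was 64 higher and 72 lower, with 102 of the 136 calls among the 183. With voom on recovered reads it was 120 higher and 115 lower. That test gives less weight to single library values that rest on few reads. The difference reached 2-fold for 71 of the higher genes and for 34 of the lower ones. All 6 left and right libraries lay above all 3 ventral libraries in 95 of the 109 higher genes, and below them in 51 of the 74 lower genes. These genes were called on the same values, so such separation is partly built in, and its share over all genes was not counted. The median difference of all genes was 0.002. Of 68 higher genes whose partner on the other chromosome set was tested, 36 had a partner that was also called, and 65 had a partner with a difference of the same sign. For the lower genes, 20 of 33 partners were called and 32 had the same sign. A pair with both copies called is counted once for each copy, and reads may be shared between copies. The rates over all tested pairs were not counted, so these counts are descriptions. The counts leaned on the ventral libraries: 49 genes were called without ventral library 3 and 69 without ventral library 1. Without the replicate block 72 were called, all of them among the 183.

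**Figure D1:**
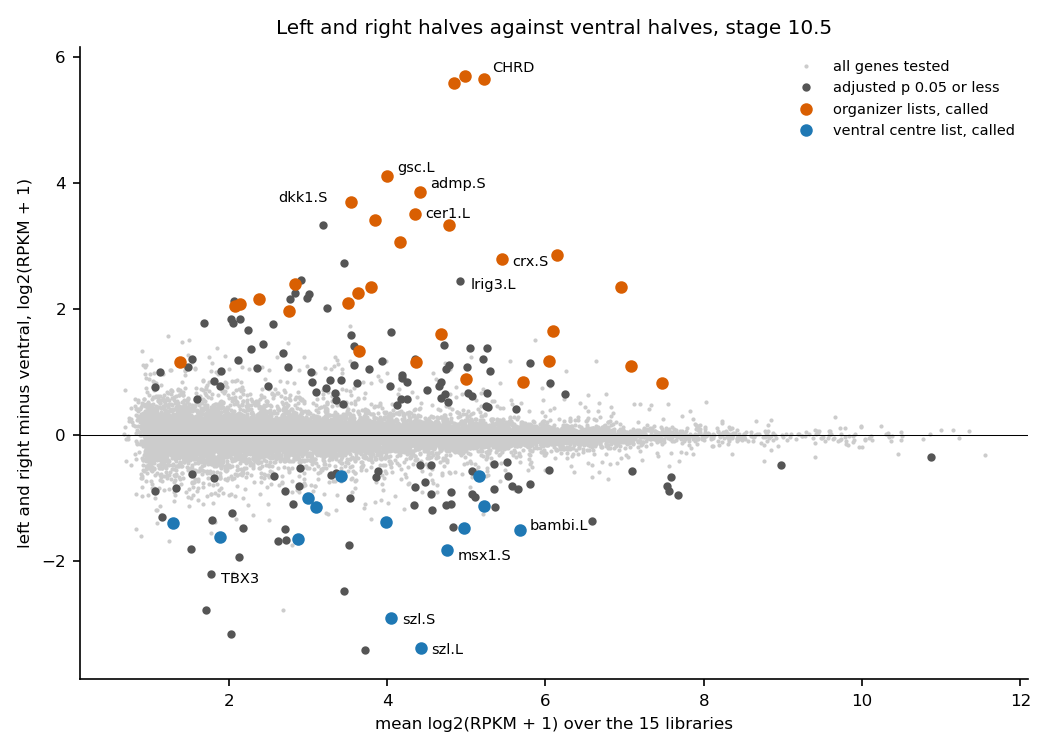
Difference between left and right half-embryos and ventral half-embryos at stage 10.5 for each of 16672 genes (vertical axis, log2(RPKM + 1), left and right minus ventral) against the gene's mean log2(RPKM + 1) over 15 libraries (horizontal axis), with called genes in dark grey, called members of the 3 organizer lists in orange and called members of the ventral centre list in blue. The 3 CHRD models stand highest, between 5.59 and 5.71, and szl.L lies lowest of the labelled genes at -3.37.

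Secreted BMP regulators of the organizer differed most. Of 9 tested members, 7 were higher, 0 were lower, and the median difference was 3.07, against 0.002 over all genes. Members of this and every later list were picked after earlier results of these data had been seen. That choice may favour one-sided counts and large medians, so both are descriptions of the lists. Chordin, the BMP-binding protein of the organizer, is represented by 3 gene models with the human symbol CHRD, and the files do not say whether these are copies or pieces of a locus. CHRD (Xelaev18029538m) had 54.2, 121 and 83.8 RPKM in left libraries 1, 2 and 3 and 73.4, 28.5 and 83.1 RPKM in right libraries 1, 2 and 3, against 0.578, 0.505 and 0.057 RPKM in ventral libraries 1, 2 and 3. The lowest left or right library thus lay far above the highest ventral one. Its difference was 5.66 ± 0.31 (SE, adjusted p = 3.45e-06, limma). The other models, CHRD (Xelaev18027420m) and CHRD (Xelaev18027421m), differed by 5.71 and 5.59. CHRD (Xelaev18027421m) had 4870 reads over the 6 left and right libraries, against 3 reads over the 3 ventral libraries. Per read of depth that is a ratio of 738, with a 95% counting interval of 253 to 3582 that covers counting error only. Chordin RNA was therefore close to the limit of detection in the ventral half-embryos.

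The copies of admp, which encodes a BMP-like ligand made in the organizer, had differences of 3.86 ± 0.42 (admp.S, SE, limma adjusted p = 0.000765) and 3.07 ± 0.37 (admp.L, SE, limma adjusted p = 0.00152). Levels of admp.S spanned 8.66 to 50.8 RPKM in left and right libraries (median 35.8), against 1.93, 1.77 and 0.2 RPKM in the ventral libraries. Noggin, the second classical BMP antagonist, was expressed at a lower level. Levels of nog.L spanned 2.26 to 11 RPKM in left and right libraries (median 5.4), against 0.387, 0.141 and 0.762 RPKM in the ventral libraries, a difference of 2.16 ± 0.3 (SE, limma adjusted p = 0.00469). Follistatin, which binds activin and BMPs, was called for fst.S (1.17, limma adjusted p = 0.0469) and not for fst.L (1.25, limma adjusted p = 0.222). The summed RPKM of the 9 members was 91.4 to 423 in left and right libraries, against 3.65 to 8.36 in ventral libraries. With voom on recovered reads, 4 of the 9 were called. That test did not call CHRD (Xelaev18027420m), at an adjusted p of 0.143, or CHRD (Xelaev18027421m), at an adjusted p of 0.0826.

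Inhibitors of Wnt and Nodal signalling were the next group. Of 19 tested members of the list, 12 were higher and 0 were lower, with a median difference of 1.34. Dickkopf1 blocks the Wnt co-receptor LRP. Its copy dkk1.S spanned 6.32 to 31.1 RPKM in left and right libraries (median 19.4), against 0.377, 0.206 and 0.558 RPKM in the ventral libraries, a difference of 3.7 ± 0.31 (SE, limma adjusted p = 0.000116). The .L copy had a smaller difference of 2.25 ± 0.44 (dkk1.L, SE, limma adjusted p = 0.0286). Cerberus, which binds Wnt, Nodal and BMP ligands, differed by 3.52 for cer1.L and 2.35 for cer1.S. The second of these copies had the higher level, 65.9 to 221 RPKM in left and right libraries (median 176), against 14.4, 44 and 32.3 RPKM in the ventral libraries. Cerberus RNA was thus well above the limit of detection in ventral half-embryos, unlike chordin. Frzb, a secreted Wnt-binding protein, was also detected there: frzb.L spanned 42.1 to 122 RPKM in left and right libraries (median 81.3), against 20.1, 28.8 and 20.7 RPKM in ventral libraries. SHISA2 (LOC100489393.S), a member of a family known in the frog to hold back Wnt and FGF receptors inside the cell, had the smallest p of the list. Its difference was 1.17 ± 0.09 (SE, limma adjusted p = 4.72e-05), with 15.6 to 27.2 RPKM in left and right libraries (median 22.2), against 9.88, 9.19 and 7.65 RPKM in ventral libraries. The secreted frizzled-related gene sfrp2.L differed by 1.34. Without ventral library 3, 5 of the 19 were called, and frzb.L was not (adjusted p = 0.0607). The call of dkk1.L was lost without any 1 of 6 libraries, with an adjusted p of up to 0.193 without ventral library 3. The voom test did not call cer1.L (adjusted p = 0.0616).

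Transcription factors of the organizer and the head mesoderm showed 12 of 23 tested members higher, 0 lower and a median of 0.9. Goosecoid, the homeobox repressor that marks the dorsal lip, spanned 9.44 to 38.8 RPKM for gsc.L in left and right libraries (median 22.7), against 0.49, 0.536 and 0.161 RPKM in ventral libraries. The difference was 4.11 ± 0.31 for gsc.L (SE, limma adjusted p = 5.36e-05) and 3.41 ± 0.36 for gsc.S (SE, limma adjusted p = 0.000625). Of 6 tested genes of the Otx family of head homeobox factors, 4 were higher. OTX2 (Xelaev18039840m) differed by 3.34, OTX2 (Xelaev18041108m) by 2.35, crx.L by 2.86 and crx.S by 2.79, whereas otx1.L (0.74, limma adjusted p = 0.302) and otx1.S (0.33, limma adjusted p = 0.749) were not called. Both crx copies were detected in ventral half-embryos: crx.L had 53.7 to 107 RPKM in left and right libraries (median 103), against 10.2, 21 and 7.21 RPKM in ventral libraries. The homeobox gene hhex.S, also listed as endoderm, differed by 2.4. Among called members the smallest difference was 0.83. Copies of not, a notochord homeobox gene, show how little some members differed: not.S had 47.9 to 61.9 RPKM in left and right libraries (median 56), against 36.9, 37.2 and 20.5 RPKM in ventral libraries. Without ventral library 3, 5 members were called, and without ventral library 1, 6. The call of hhex.S was lost without ventral library 1, 2 or 3 (adjusted p = 0.0836, 0.0712 and 0.104) and in the voom test (adjusted p = 0.144), and that of gsc.S in the voom test (adjusted p = 0.0535).

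Over the 3 organizer lists together, 31 of 51 tested members were higher and 0 were lower. So one-sided a count may be due in part to how the members were picked, with earlier results already seen. In each of the 31 the 6 left and right libraries lay above the 3 ventral ones, which calling on the same values favours. The same held for 95 of all 109 higher genes, and the share over all genes tested was not counted. Of the 20 members that were not called, the difference was between -0.45 and 1.74. An early dorsal Wnt target list of 7 members had 1 called, NODAL (Xelaev18018866m), a model of the Nodal family of mesoderm-inducing ligands. It spanned 1.72 to 6.66 RPKM in left and right libraries (median 3.53), against 0.227, 0.496 and 0.224 RPKM in ventral libraries, a difference of 1.84 (limma adjusted p = 0.00469). Without ventral library 1 the 3 organizer lists held 20 called members, without ventral library 3 they held 16, and with only the left, right and ventral libraries fitted they held 17 (5, 5 and 7 in the order of the lists above). The early dorsal Wnt target count was 2 without left library 3 or right library 2, and 0 without replicate number 2, where NODAL (Xelaev18018866m) had a limma adjusted p of 0.0593.

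**Figure D2:**
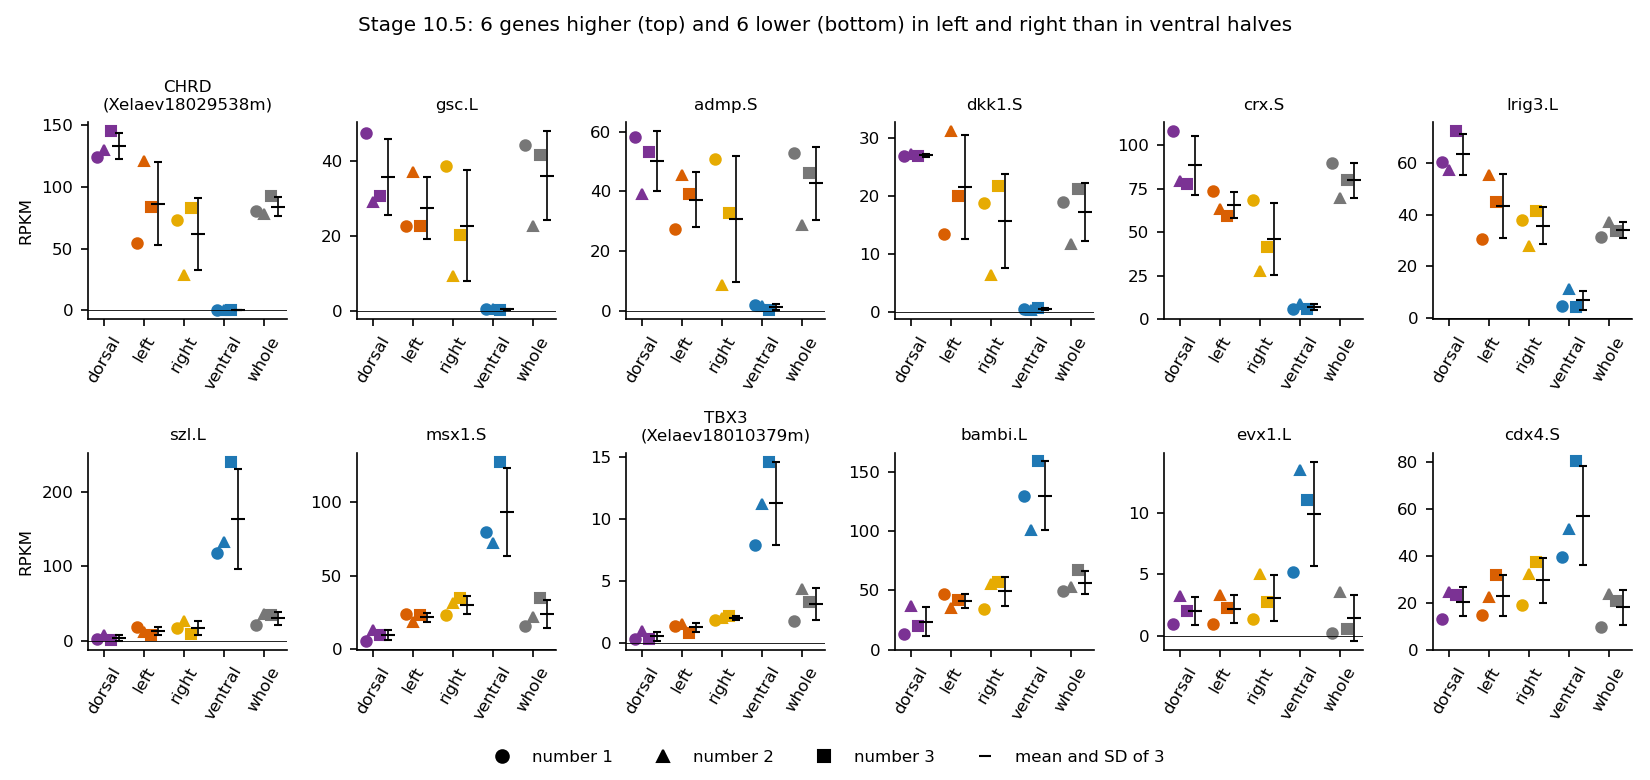
RPKM in each stage 10.5 library of 6 genes higher (top row) and 6 genes lower (bottom row) in left and right than in ventral half-embryos, with symbols for replicate numbers 1, 2 and 3 and a bar for the mean and SD of 3 libraries. In the top row every left and right point lies above every ventral point, and right library 2 (triangle) is the lowest of the 6 left and right libraries.

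The called organizer genes had higher means in dorsal half-embryos than in left and right half-embryos, a difference that did not pass the test in any of them. Across the 31 called organizer genes, the left and right mean was 46% to 94.2% of the dorsal mean (median 62.9%) and 53.2% to 129% of the mean of whole embryos (median 90.1%). The summed RPKM of the 9 BMP regulators was 432 to 542 in dorsal libraries, 91.4 to 423 in left and right libraries and 266 to 306 in whole embryos. The dorsal mean was above the left and right mean in all 31, and 19 of the 31 had an unadjusted limma p under 0.05 for that difference. Over all genes, none was called between dorsal half-embryos and left and right half-embryos with limma (0 of 16672, 0%), the lowest adjusted p was 0.0612, and 1702 genes had an unadjusted p under 0.05. Other settings did call genes: voom on recovered reads called 78 (30 higher in dorsal half-embryos, 48 lower), and 19 were called among genes with a mean RPKM of 5 or more. Leaving out dorsal library 2 gave 13 calls. These counts do not show that the groups were alike. Of all 109 genes higher in left and right than in ventral half-embryos, 94 had a left and right mean between the dorsal and the ventral mean, and 15 lay beyond the dorsal mean. Of the 74 lower genes, 45 lay between and 29 lay beyond. Dorsal and ventral comparisons share these left and right libraries, so the positions are descriptions.

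Genes of the ventral centre and targets of BMP signalling were lower in left and right half-embryos than in ventral half-embryos. Of 40 tested members, 14 were lower, 0 were higher, and the median difference was -0.65. The summed RPKM of the 40 members was 1108 to 1460 in left and right libraries and 1854 to 2501 in ventral libraries. It was 1086 to 1215 in whole embryos and 917 to 1197 in dorsal libraries. In the 14 called members the left and right mean was 50.4% to 192% of the mean of whole embryos (median 122%). Left and right half-embryos were not tested against whole embryos. Sizzled, a secreted inhibitor of the proteases that cut Chordin, showed the strongest difference. The copy szl.L had 19.1, 12.3 and 8.2 RPKM in left libraries 1, 2 and 3 and 17.1, 27.2 and 8.56 RPKM in right libraries 1, 2 and 3, against 118, 133 and 241 RPKM in ventral libraries 1, 2 and 3. All 6 left and right libraries lay below the lowest ventral library. The difference was -3.37 ± 0.4 (SE, limma adjusted p = 0.00149), and szl.S differed by -2.9 ± 0.43 (SE, limma adjusted p = 0.00626). Bambi is a decoy receptor that dampens BMP signalling and is itself induced by it. Levels of bambi.L spanned 34.7 to 57.1 RPKM in left and right libraries (median 44.4), against 130, 101 and 159 RPKM in ventral libraries, a difference of -1.51. The .S copy differed by -1.12 (bambi.S). Msx1, a homeobox protein induced by BMP, was lower than in ventral half-embryos by 1.82 for msx1.S (limma adjusted p = 0.00106) and by 1.47 for msx1.L (limma adjusted p = 0.00283). For msx1.S, left and right libraries spanned 18.1 to 34.5 RPKM (median 23.2), against 79.8, 72.3 and 128 RPKM in ventral libraries. The homeobox gene evx1.L, which is expressed in ventral and posterior mesoderm, differed by -1.61 and evx1.S by -1.38. Without ventral library 3, 4 members were called, without ventral library 1, 5, and without the replicate block, 6. Calls were lost without ventral library 3 for szl.S (adjusted p = 0.0614), and without ventral library 1 or 3 for bambi.L (0.101 and 0.114), bambi.S (0.108 and 0.164) and evx1.S (0.108 and 0.145), all adjusted p-values of limma. Neither evx1.L nor evx1.S was called without the replicate block (limma adjusted p = 0.333 and 0.15).

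T-box repressors and Ventx homeobox genes were lower too. The T-box genes were among the 15 strongest, and the VENTX and smad7-like genes were picked out after their values were seen. TBX3 (Xelaev18010379m) spanned 0.817 to 2.13 RPKM in left and right libraries (median 1.68), against 7.87, 11.2 and 14.6 RPKM in ventral libraries, a difference of -2.21 ± 0.19 (SE, limma adjusted p = 0.000146). TBX3 (Xelaev18007438m) differed by -1.81, tbx2.L by -1.67 and tbx2.S by -1.47. All 4 tested TBX2 and TBX3 genes were called. The 4 tested VENTX models, homeobox repressors that are direct BMP targets in the frog, differed by -0.95 to -0.66. Their levels were high in every group: VENTX (Xelaev18034615m) had 155 to 192 RPKM in left and right libraries (median 179), against 286, 361 and 372 RPKM in ventral libraries. These differences were smaller than that of szl.L. The groups did not overlap in any of the 4, which calling on the same values favours, and the share over all genes was not counted. The VENTX means did not run in a dorsal to ventral order: the left and right mean was 72% to 93.8% of the dorsal mean and 121% to 129% of that of whole embryos. VENTX (Xelaev18034615m) had 202, 306 and 222 RPKM in dorsal libraries, all above the 6 left and right libraries, and 141, 129 and 155 RPKM in whole embryos. None of the 4 was called between dorsal half-embryos and left and right half-embryos with limma (adjusted p = 0.157 to 0.83). Both smad7-like copies, which encode an inhibitory SMAD of the pathway, differed by -1 (smad7-like.L) and -1.09 (smad7-like.S). Without ventral library 3, 2 of the 4 T-box genes were called: tbx2.L had an adjusted p of 0.0709 and tbx2.S of 0.215. The call of tbx2.S was also lost without left library 1, left library 3, right library 3 or ventral library 2 (adjusted p = 0.056 to 0.0664). Neither tbx2.L nor tbx2.S was called without the replicate block (limma adjusted p = 0.0905 and 0.205).

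Posterior and ventrolateral mesoderm genes were lower in 10 of 32 tested members and higher in 1, with a median of -0.43. The summed RPKM of the 32 members was 950 to 1066 in left and right libraries and 1429 to 1692 in ventral libraries. It was 775 to 987 in whole embryos, against which no test was run. Sizzled and evx1 copies are in this list as well as in the ventral one and make up 4 of the 10. Cdx genes encode homeobox proteins that activate posterior Hox genes, and 4 of 5 tested were lower. For cdx4.S, left and right libraries spanned 14.6 to 37.5 RPKM (median 27.2), against 39.4, 51.4 and 80.4 RPKM in ventral libraries, a difference of -1.1 ± 0.13 (SE, limma adjusted p = 0.00115). Its partner cdx4.L differed by -1.09. Libraries of the same replicate number lay high or low together in both groups, and without the block cdx4.S was not called (adjusted p = 0.464). Wnt8a, the ligand that patterns ventrolateral mesoderm, had a small difference: wnt8a.L spanned 55.3 to 90 RPKM in left and right libraries (median 63.7), against 95.2, 102 and 97.3 RPKM in ventral libraries. Its difference was -0.56 ± 0.11 (SE, limma adjusted p = 0.0263), and wnt8a.S differed by -0.93. The general mesoderm gene brachyury was not called (t.S -0.28 and t.L -0.58, named after its values were seen). The higher member was fgf20.L. The number of lower members was 5 without ventral library 1, 4 without ventral library 3 and 2 without the block. The fgf20.L call was lost without ventral library 1 (adjusted p = 0.0501). Calls of wnt8a.L and wnt8a.S were lost without ventral library 1 (adjusted p = 0.194 and 0.0912), ventral library 2 (0.119 and 0.153) or left library 3 (0.0727 and 0.0736). The first was lost too without right library 1 (0.0655), right library 2 (0.0555) or left library 2, and the second without left library 2 (0.0672) or ventral library 3 (0.13). Without ventral library 3, cdx4.L had an adjusted p of 0.0607.

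In the paraxial mesoderm and muscle list, members moved both ways: 2 of 34 tested were higher, 4 were lower, and the median was -0.56. The 2 higher members were the copies of myf5, the first myogenic factor of the muscle lineage. For myf5.L, left and right libraries spanned 4.48 to 11.7 RPKM (median 7.18), against 0, 3.47 and 0.626 RPKM in ventral libraries, and the difference was 2.17 ± 0.37 (SE, limma adjusted p = 0.0146). The other copy, myf5.S, differed by 2.01 ± 0.31 (SE, limma adjusted p = 0.00854). Myod1, the related factor of the wider marginal zone, was not called for either copy (myod1.L 0.64, myod1.S -0.14). The lower members belonged to the Notch pathway, which divides the mesoderm into segments: dll1.L and dll1.S encode the ligand Delta, and HES5 (Xelaev18037605m) and HES5 (LOC733709.L) are targets. Both HES5 models are also in the ventral centre list and are counted among its lower members too. HES5 (Xelaev18037605m) spanned 1.68 to 8.06 RPKM in left and right libraries (median 6.27), against 15, 14.1 and 26 RPKM in ventral libraries, a difference of -1.65 ± 0.27 (SE, limma adjusted p = 0.013). For dll1.L the difference was -0.75 (limma adjusted p = 0.0175). No member was called lower without ventral library 1, without ventral library 3 or without the block, and 2 were without right library 1. Without ventral library 1, myf5.S had an adjusted p of 0.0589 and myf5.L of 0.119, and without ventral library 3 myf5.L had 0.145.

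Neural plate genes were higher in left and right half-embryos at this stage, before the neural plate can be seen. Of 39 tested members, 15 were higher and 3 lower, with a median of 0.66, and 31 differences were above 0. Zic genes, zinc finger factors of the early neural plate, were higher in 6 of 9 tested copies, and iroquois homeobox genes in 3 of 6. For zic1.S, left and right libraries spanned 47.6 to 92.8 RPKM (median 55.7), against 31.9, 43.1 and 14.3 RPKM in ventral libraries, and the difference was 1.14 ± 0.23 (SE, limma adjusted p = 0.0332). The groups lay closer together here than in the strongest organizer genes, but some called organizer genes differed by as little as 0.83. For irx1.L, left and right libraries spanned 10.9 to 26 RPKM (median 17.9), against 3.27, 7.53 and 4.56 RPKM in ventral libraries, and the difference was 1.64 ± 0.23 (SE, limma adjusted p = 0.00437). The left and right mean of the 15 higher neural genes was 53.7% to 99.2% of the dorsal mean (median 81.4%), and the 31 higher organizer genes had a median of 62.9%, with OTX2 in both lists. That difference between the lists was not tested. The 3 lower members were cdx4.L and cdx4.S, which mark the posterior plate and the tail mesoderm, and znf703.L. The neural count was the least stable of the larger ones: 9 members were called higher without left library 3 or right library 3, 2 without ventral library 1, 1 without ventral library 3 and 6 without the block. Without ventral library 1 or 3 no zic gene was called, with adjusted p-values of 0.185 and 0.23 for zic1.S. Its call was also lost without left library 1 or 3 or any right library (adjusted p = 0.0599 to 0.0867), and irx1.L had an adjusted p of 0.0525 without ventral library 3.

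**Figure D3:**
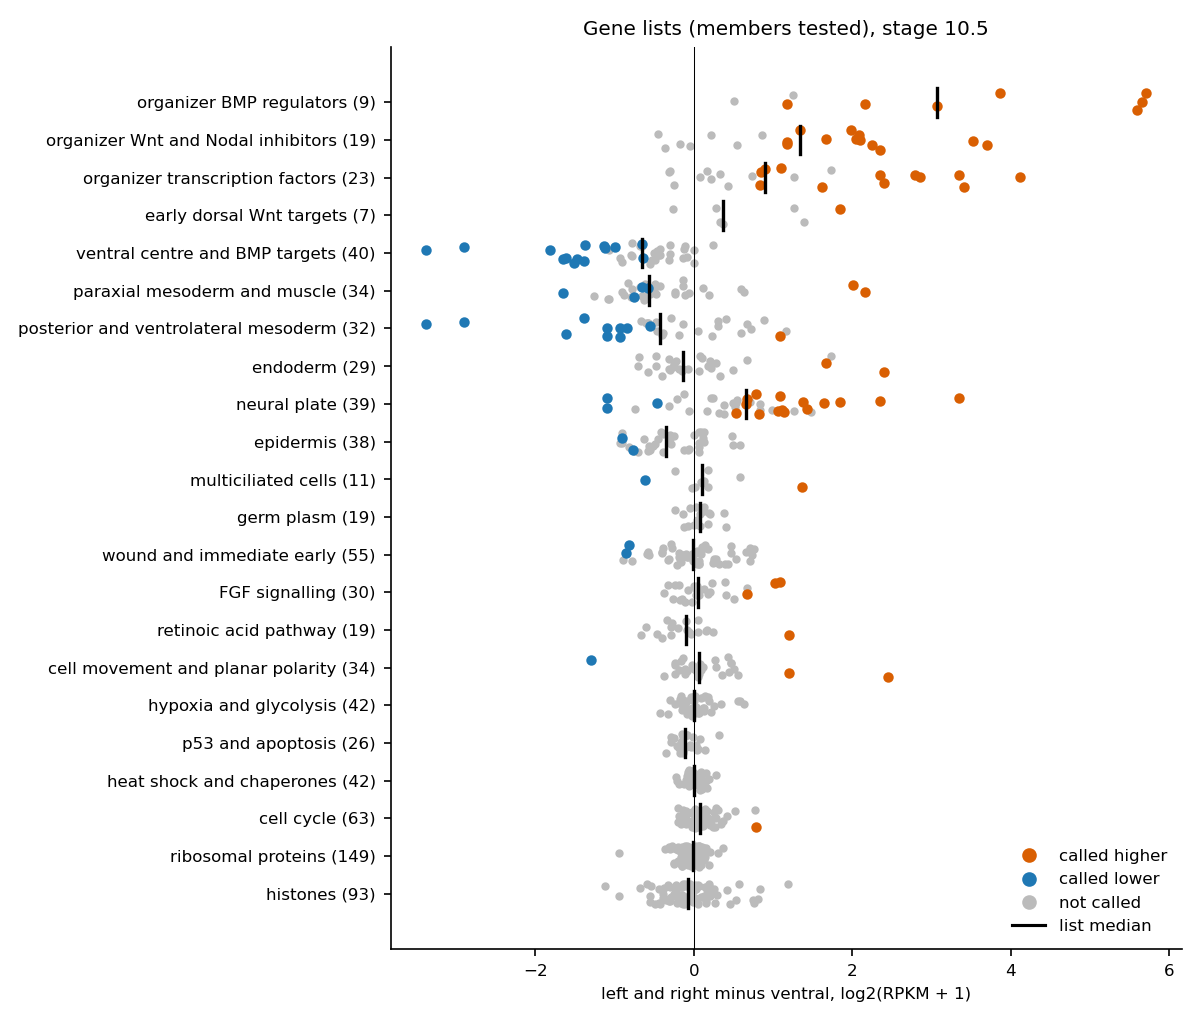
Difference between left and right half-embryos and ventral half-embryos (horizontal axis, log2(RPKM + 1), left and right minus ventral) for the members of 22 gene lists, with the number of tested members in brackets, orange and blue points for members called higher and lower, and a black bar for the list median. The organizer lists lie to the right with medians of 3.07, 1.34 and 0.9, the ventral centre list to the left at -0.65, and the lists for housekeeping and stress near 0.

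Epidermal genes, which mark ventral ectoderm at later stages, had 2 calls. Of 38 tested members, 2 were lower (5.26%, against 0.444% of all genes tested) and 0 higher, with a median of -0.35. An unadjusted limma p under 0.05 was found for 17 of the 38, against 1468 of all 16672 genes tested. The transcription factor gene grhl3.L spanned 31.1 to 70.1 RPKM in left and right libraries (median 55.2), against 93.3, 63.2 and 122 RPKM in ventral libraries, a difference of -0.77 (limma adjusted p = 0.0448). The homeobox gene dlx5.S differed by -0.9 (limma adjusted p = 0.0473). Both lay close to the threshold: dlx5.S was lost without any library but right library 2 (adjusted p up to 0.298), and grhl3.L without left library 1 or 2, right library 1 or 3 or ventral library 1 or 3 (adjusted p up to 0.298). The list count was 4 without right library 2, 0 without the block and 7 with voom on recovered reads. Keratin 12, the main early epidermal keratin, did not pass the test for any of 3 copies. For krt12.S, left and right libraries spanned 22.7 to 64 RPKM (median 41.6), against 54.9, 22.5 and 140 RPKM in ventral libraries. The left and right values fell within the ventral range in that copy.

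Among ciliary genes, 1 of 11 tested was higher and 1 lower. The higher one was foxj1.L, the master regulator of motile cilia, with 3.13 to 10.3 RPKM in left and right libraries (median 5.26), against 0.627, 1.76 and 2.3 RPKM in ventral libraries. Its difference was 1.37 ± 0.18 (SE, limma adjusted p = 0.00282), and it was 0.0829 by adjusted p without the block. The lower one, foxn4.L, a factor of multiciliated skin cells, differed by -0.61 (limma adjusted p = 0.0437), and its call was lost without any left or right library but right library 2 and without ventral library 1 or 3 (adjusted p up to 0.347). The other 9 members differed by -0.23 to 0.59.

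Signalling genes outside the BMP and Wnt groups changed in a few members. In the FGF list 3 of 30 were higher and 0 lower: the ligands fgf20.L (1.09) and fgf16.L (1.03) and spred1.L (0.68), an inhibitor of the Ras pathway below FGF receptors. Levels of fgf20.L spanned 5.77 to 9.45 RPKM in left and right libraries (median 6.74), against 1.9, 3.84 and 3.03 RPKM in ventral libraries. The groups did not overlap. In the retinoic acid list 1 of 19 was higher, aldh1a2.L, the enzyme that makes retinoic acid, with 32.1 to 55.8 RPKM in left and right libraries (median 44.5), against 14.7, 26.7 and 14 RPKM in ventral libraries. Its difference was 1.21 ± 0.19 (SE, limma adjusted p = 0.00922). In the cell movement list 2 of 34 were higher and 1 was lower. The 2 were the copies of lrig3, a membrane protein with leucine-rich repeats, and lrig3.L spanned 27.7 to 55.1 RPKM in left and right libraries (median 39.7), against 4.78, 11.2 and 4.36 RPKM in ventral libraries. Its difference of 2.45 ± 0.23 (SE, limma adjusted p = 0.00026) was as large as those of many organizer genes. The lower member, rspo2.S, a secreted enhancer of Wnt signalling, differed by -1.3 at levels under 4 RPKM and was lost without ventral library 3 (adjusted p = 0.0607). The FGF count was 1 without right library 1, right library 3, ventral library 1 or ventral library 3, and aldh1a2.L was lost without ventral library 1 (adjusted p = 0.0688) or 3 (0.0749).

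Lists for general cell functions and for injury showed 2 calls or fewer each. Of 55 tested wound and immediate early genes, 2 were lower (3.64%, against 0.444% of all genes tested). Both were Kruppel-like zinc finger factors: KLF2 (Xelaev18025218m) by -0.81 and KLF4 (Xelaev18023103m) by -0.86. KLF2 (Xelaev18025218m) spanned 36.8 to 64.5 RPKM in left and right libraries (median 41.8), against 86.8, 75.2 and 76.5 RPKM in ventral libraries. The count was 0 without ventral library 1 or 3, 1 without left library 3 or right library 3, and 4 lower and 1 higher with voom. In the endoderm list 2 of 29 were higher, hhex.S and frzb.L, which the organizer lists also hold, and the median was -0.13. That count was 1 without ventral library 1 or 2 and 0 without ventral library 3. In the cell cycle list 1 of 63 was higher, ccnd1.S (0.79, limma adjusted p = 0.0498), and its call was lost without any library but ventral library 2. No member was called with limma among 19 germ plasm, 42 hypoxia and glycolysis, 26 p53 and apoptosis, 42 heat shock, 149 ribosomal protein and 93 histone genes. With 1.10% of all genes called, 0 calls in lists of this size says little. Unadjusted limma p-values under 0.05 were found for 1, 8, 0, 1, 8 and 13 of them in that order. Over all 16672 genes tested the number was 1468. Voom called 1 gene among these lists, in hypoxia and glycolysis. That list also had 1 call without ventral library 2 and 1 without right library 1. Left, right and ventral half-embryos were all cut, so these lists set wounded tissue against wounded tissue.

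Some of the 15 strongest higher and 15 strongest lower genes with a symbol were in no list. SFRP5 (Xelaev18024021m), a secreted Frizzled-related Wnt inhibitor, spanned 1.12 to 26.3 RPKM in left and right libraries (median 12.5), against 0, 0.0912 and 0 RPKM in ventral libraries. It had 904 reads over the 6 left and right libraries, against 1 read over the 3 ventral ones, a ratio of 411 with a 95% interval of 73.6 to 16259 that covers counting error only. HES1 (Xelaev18019219m), a Notch-responsive repressor, differed by 2.47. On the lower side, cebpa.L, a transcription factor gene, differed by -1.49, BLVRA (Xelaev18031181m), biliverdin reductase, by -1.74, and ZCCHC3 (Xelaev18000337m), a zinc finger protein, by -2.47. ZCCHC3 (Xelaev18000337m) spanned 2.42 to 7.01 RPKM in left and right libraries (median 3.85), against 51.1, 22.5 and 15.9 RPKM in ventral libraries. In dorsal libraries it had 24.3, 6.23 and 2.41 RPKM. It did not follow a dorsal to ventral order, and its left and right mean was 14.4% of that of whole embryos. Of the genes without any symbol, 7 were called higher and 12 lower. Named after their values were seen, foxd3.L (2.24) and foxd3.S (2.26), which encode a repressor of the dorsal lip and later of the neural crest, and trabd2a.L (1.76), a protease that cleaves Wnt ligands, were also higher. Calls were lost without ventral library 1 or 3 for SFRP5 (adjusted p = 0.0836 and 0.109) and BLVRA (0.15 and 0.161), and for ZCCHC3 without ventral library 1 (0.184), ventral library 3 (0.129), left library 1 (0.0556), right library 1 (0.0626) or right library 3 (0.0519). SFRP5 was not called by voom (adjusted p = 0.367). Leaving out the replicate block lost the calls of cebpa.L, BLVRA and ZCCHC3 (limma adjusted p = 0.339, 0.327 and 0.0836).

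The fit of only the left, right and ventral libraries lost 19 of the 63 named calls. Its higher calls were fewer in the neural list (6 of 39), the FGF list (1 of 30), the muscle list (0 of 34) and the retinoic acid list (0 of 19), while 15 members of the ventral centre list and 12 of the posterior mesoderm list were called lower. Its limma adjusted p was 0.0506 for nog.L, 0.0538 for cer1.S, 0.0555 for frzb.L, 0.103 for dkk1.L, 0.106 for hhex.S, 0.0863 for SFRP5, 0.06 for myf5.S and 0.0936 for myf5.L. It was 0.0876 for zic1.S, 0.077 for aldh1a2.L, 0.103 for fgf16.L, 0.0726 for spred1.L, 0.0604 for wnt8a.S, 0.145 for grhl3.L and 0.148 for foxn4.L. KLF2 (0.0789), KLF4 (0.0863), ccnd1.S (0.0726) and irx2.L (0.108) were not called either. Without replicate number 2, the posterior mesoderm list had 6 lower members, the muscle list 2 and the epidermal list 6. The limma adjusted p there was 0.301 for wnt8a.L, 0.205 for wnt8a.S, 0.11 for dll1.L, 0.114 for ZCCHC3, 0.0557 for tbx2.S, 0.154 for spred1.L, 0.0699 for foxn4.L and 0.0773 for TUBA1A (Xelaev18044483m). With a pseudocount of 0.1 it was 0.12 for evx1.S, 0.0509 for grhl3.L, 0.0587 for dlx5.S, 0.0566 for foxn4.L and 0.052 for ccnd1.S.

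Each side was then set against ventral half-embryos on its own. Left half-embryos differed from ventral half-embryos in 152 genes (0.912% of those tested, with 93 higher, 0.558%, and 59 lower, 0.354%) and right half-embryos in 60 (0.360%, with 35 higher, 0.210%, and 25 lower, 0.150%). Both comparisons use the same ventral libraries. Set against each other, left and right half-embryos differed in 0 genes with limma (0%). The lowest adjusted p was 0.137, 330 genes had an unadjusted p under 0.05, voom on recovered reads called 0, and 3 were called without right library 2, all lower in left half-embryos. A larger count on the left is thus no test of a difference between the sides. The counts moved with single libraries. Left half-embryos had 47 calls without ventral library 3, 53 without left library 2, 53 without left library 3, 62 without ventral library 1 and 98 without left library 1. Right half-embryos had 20 without right library 1, 22 without ventral library 1, 24 without ventral library 3 and 25 without right library 3.

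The organizer genes varied between sides mostly in replicate number 2. Right library 2 held the lowest of the 6 left and right values in 28 of the 31 called organizer genes, and left library 2 the highest in 20. For CHRD (Xelaev18029538m), left library 2 had 121 RPKM and right library 2 had 28.5 RPKM, whereas in number 3 left had 83.8 RPKM and right 83.1 RPKM. Over the 31 genes the median difference of left minus right was -0.46 in number 1, 1.73 in number 2 and 0.14 in number 3. Genes of the ventral centre went the other way in number 2, with right library 2 the highest of the 6 in 8 of 14 called members and a median left minus right of -0.57. Over the 6 called zic genes it was 0.4 in number 2. The imbalance was not particular to organizer genes. Over the 29 tested endoderm genes, some also in the organizer lists, the median left minus right was 0.91 in number 2. It was -0.4 in number 1 and -0.1 in number 3. RNA of both groups was thus unequal between left library 2 and right library 2, with 1 library per side. Right half-embryos had 78 calls against ventral half-embryos without right library 2, in place of 60. Without right library 2 the main count was 191 in place of 183, and 32 organizer genes were called in place of 31.

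**Figure D4:**
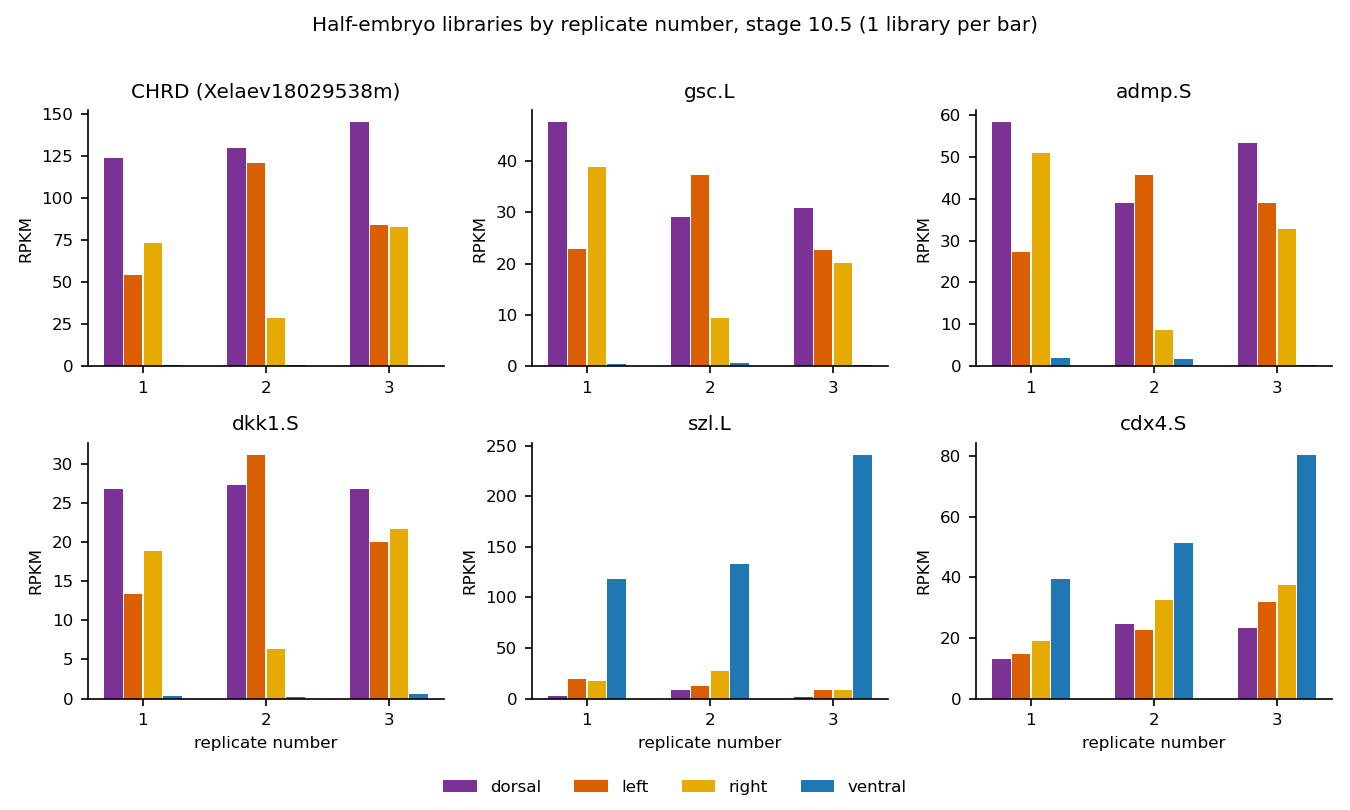
RPKM of 6 genes in dorsal, left, right and ventral half-embryo libraries of stage 10.5, grouped by replicate number, with 1 library per bar. In number 2 the left bar stands well above the right bar for CHRD, gsc.L, admp.S and dkk1.S, while in number 3 the left and right bars are close, and the ventral bar of these 4 genes is near 0 throughout.

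The difference between left and right and ventral half-embryos was compared with that at stage 12, the late gastrula, in 1 model of all 30 libraries over 14947 genes. It changed in 9 genes (0.0602% of those tested), 5 upward (0.0335%) and 4 downward (0.0268%). Neural plate genes were among those that changed upward. For zic1.S the difference was 1.14 at stage 10.5 and 3.89 at stage 12, a change of 2.74 ± 0.46 (SE, limma adjusted p = 0.0206). Left and right libraries had 47.6 to 92.8 RPKM at stage 10.5 (median 55.7) and 14.5 to 60.5 at stage 12 (median 47.4), whereas ventral libraries had 31.9, 43.1 and 14.3 RPKM at stage 10.5 and 0.799, 3.4 and 1.59 RPKM at stage 12. The ventral libraries of stage 12 lay below all left and right libraries of either stage. The copies irx2.L and irx2.S changed by 2.65 and 2.72, and lhx5.L, a forebrain homeobox gene, by 1.72.

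In foxj1.L and an alpha-tubulin model the difference changed sign between the stages. The sign also changed in arpc1b.S (0.19 to -1.05) and pdxdc1.L (0.11 to -1.19), which were not called at stage 10.5. For foxj1.L the difference was 1.37 at stage 10.5 and -1.57 at stage 12, a change of -2.94 ± 0.5 (SE, limma adjusted p = 0.0206). Left and right libraries had 3.13 to 10.3 RPKM at stage 10.5 (median 5.26) and 2.26 to 11.1 at stage 12 (median 5.84), whereas ventral libraries had 0.627, 1.76 and 2.3 RPKM at stage 10.5 and 30.4, 10.5 and 17.3 RPKM at stage 12. At stage 12 the groups overlapped in 1 ventral library. TUBA1A (Xelaev18044483m), an alpha-tubulin, changed by -3.05 ± 0.41 (SE, limma adjusted p = 0.00603), with 12.1 to 19.5 RPKM in left and right libraries at stage 10.5 (median 16.8) and 21.7 to 38.9 at stage 12 (median 25.3), whereas ventral libraries had 4.6, 6.33 and 3.7 RPKM and then 139, 46.9 and 63.9 RPKM. The early call of this gene was lost without ventral library 1 (adjusted p = 0.0788) or 3 (0.0749). Of the 9 genes, 0 were called without ventral library 1 of stage 10.5, 2 without right library 1 and 6 without ventral library 3, which gave 3 other genes. TUBA1A (Xelaev18044483m) was the 1 gene called without ventral library 2, left library 3 or right library 3 of stage 10.5. No library of stage 12 was left out, so how far the changes lean on single stage 12 libraries was not examined.

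**Figure D5:**
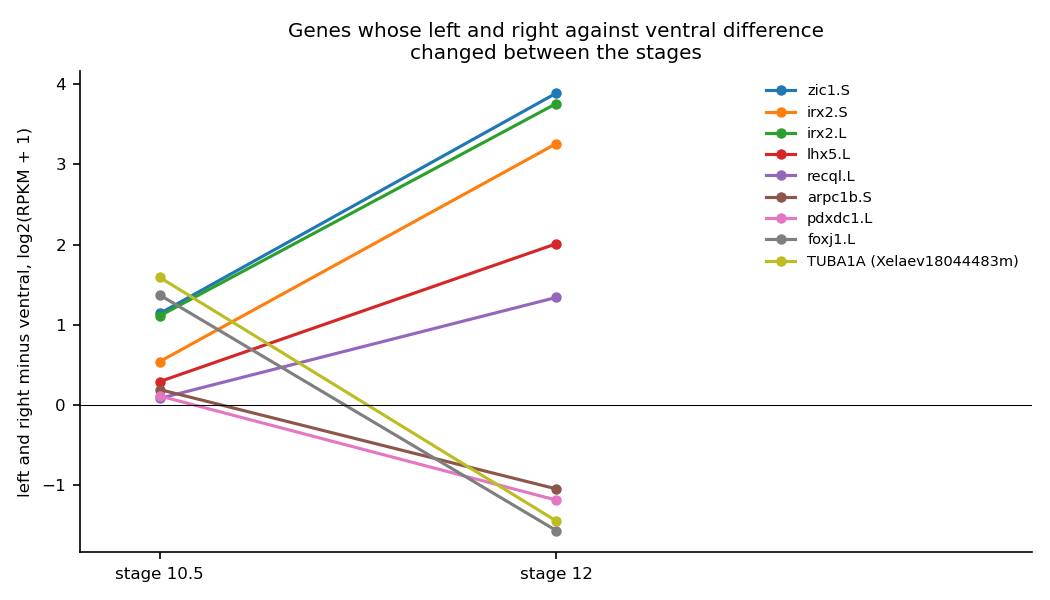
Difference between left and right half-embryos and ventral half-embryos (vertical axis, log2(RPKM + 1), left and right minus ventral) at stage 10.5 and stage 12 for the 9 genes whose difference changed between the stages. The lines of zic1.S, irx2.L, irx2.S, lhx5.L and recql.L go up, and those of foxj1.L, TUBA1A, arpc1b.S and pdxdc1.L cross 0 on the way down.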

How the data were processed

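For each stage, 1 table was deposited that gives every gene's RPKM, per the file headers. Gene models follow JGI9.1, with human symbols from a protein search, per the file headers. Poly(A) RNA was read as 100-base single ends from TruSeq V2 libraries, which keep no strand, per the labels' protocols. TopHat2 2.09 and DESeq appear in the submitters' processing notes. No read counter is named there. In 100% of genes at each stage the values were whole multiples of 1 step (relative tolerance 1e-08), and dividing by it gave whole reads.

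Groups and replicate numbers come from the sample titles. Values were tested as log2(RPKM + 1), for genes that reached 1 RPKM in 3 or more libraries, with limma 3.58.1 in R 4.3.3 (trend option, two-sided, Benjamini-Hochberg over all tested genes). The 15 libraries of stage 10.5 were fitted together, with a term for each group and the replicate number as a block. The change between stages was tested in 1 fit of 30 libraries. Replicate numbers pair the libraries: each control's label names the same-numbered half-embryos, and deviations from group means correlated at 0.4144 or more (median 0.5341) in all 30 same-numbered pairs, against -0.1567 or less in other pairs. Centring each group on its mean of 3 libraries itself pushes the other pairs negative, so their values are no separate evidence of pairing. Read recovery and the stage 10.5 fit of left and right against ventral half-embryos were tested on simulated data with known answers. The fit of the change between stages was not. The simulated fit used normal noise and put changes only in well-expressed genes. It therefore did not cover changes with ventral values near 0 or single outlying libraries.

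Members and the 22 gene lists were chosen with earlier results of these data known. Named genes were the 15 most increased and 15 most decreased called genes with a symbol that moved alike in all pairs, up to 4 called genes per list, copies of 11 marker genes, and up to 5 per further comparison. Genes named outside this rule are said to be. Alternatives were no block, only the groups compared, a pseudocount of 0.1, no filter, a mean RPKM of 5, quantile and upper-quartile scaling, and each library left out. Chosen after seeing the data were voom weights on recovered reads and leaving out replicate number 2. Coordinates and sequences were not used here.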

Additional observations from a re-analysis of the deposited data

Results flagged for a closer look

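In 3 of the 30 genes examined for a library far from the other 5 left and right libraries, right library 2 was the lowest by a wide gap. The gap to the next library, as a share of the range on the log2 scale, was 0.639 for admp.S, 0.707 for admp.L and 0.663 for crx.L, above Dixon's critical value for 6 samples. Chance flags about 1 in 20 such groups.

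The difference between left and right half-embryos and ventral half-embryos changed between stages 10.5 and 12 in 9 genes by limma's test of the change itself. It changed by -3.05 for TUBA1A (Xelaev18044483m), -2.94 for foxj1.L, -1.3 for pdxdc1.L and -1.24 for arpc1b.S. It changed by 2.74 for zic1.S, 2.72 for irx2.S, 2.65 for irx2.L, 1.72 for lhx5.L and 1.26 for recql.L.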

How the results depend on the processing

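Calls between left and right and ventral half-embryos numbered 183. They were 72 without the replicate block, 136 in a fit of only the groups compared, 235 with voom on recovered reads, and 49 to 191 with 1 library left out. Of the 63 named genes that were called, 40 stayed called without the block, 44 with only the groups compared, 32 without ventral library 3 and 37 without ventral library 1. With the other scalings at least 61 did. Left against ventral, 152, gave 56 without the block and 47 to 168 with 1 library left out. Right against ventral, 60, gave 27 without the block, 6 with only the groups compared, 104 with voom, 107 without replicate number 2, and 20 to 89 with 1 library left out. Left against right, 0, gave 0 to 3 with 1 library left out and 2 without number 2. Dorsal against left and right, 0, gave 2 with only the groups compared, 19 at a mean RPKM of 5, 78 with voom, 15 without number 2, and 0 to 13 with 1 library left out. The change between stages, 9, gave 7 without the block, 11 with a pseudocount of 0.1, and 0 to 9 with 1 library left out. Uncalled keratin values changed sign: KRT12 (LOC549413.S), 0.13, was -0.06, -0.2 and -0.39 without left, right and ventral library 2, -0.7 without number 2, and ranged up to 0.53. Without ventral library 3 krt12.S (-0.45) was 0.14 and KRT12 (LOC549413.L) (-0.25) was 0.26, against lowest values of -1.29 and -0.51. The causes were not tested. Depth limits genes with few reads: the ratio of SFRP5 (Xelaev18024021m) rests on 1 ventral read.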

Other observations

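In a few called genes the 6 left and right libraries lay outside the range of both dorsal and ventral libraries, a pattern picked out after the values were seen. CYB561 (Xelaev18043353m), a cytochrome of the b561 family, had 26.1, 19.9 and 22.4 RPKM in dorsal libraries and 9.04 to 18.3 RPKM in left and right libraries (median 14.8), against 28.8, 21.3 and 25.1 RPKM in ventral libraries and 23.7, 21.7 and 31.4 RPKM in whole embryos. The model Xelaev18000342m, which has no symbol, had 20.4, 19.7 and 15.8 RPKM in dorsal libraries and 0.876 to 10.6 RPKM in left and right libraries (median 4.42), against 49.1, 48.1 and 54.2 RPKM in ventral libraries. In the other direction idh3a.S, a subunit of a mitochondrial dehydrogenase, had 12.8, 13.5 and 15.6 RPKM in dorsal libraries and 17 to 22.2 RPKM in left and right libraries (median 18.2), against 13.2, 12.8 and 13.5 RPKM in ventral libraries. Its left and right libraries did not all lie above the whole-embryo libraries. None of the 3 was called between dorsal half-embryos and left and right half-embryos with limma (adjusted p = 0.0862, 0.0996 and 0.14).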
